A study of Homo sapiens with 6 samples.

Results

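The MYC, MAX and MXD network is a set of basic helix-loop-helix leucine zipper transcription factors that compete for shared partners and shared DNA sites. Its 10 genes examined here, MYC, MAX, MXI1, MXD1, MXD3, MXD4, MNT, MLX, MLXIP and MGA, were taken by symbol from the 60675 gene rows of the deposited count table, and all 10 were abundant enough to be among the 15568 genes tested. The table holds RNA-seq read counts of 6 libraries from MRC-5 fibroblasts, a human cell line established from fetal lung that stops dividing after a limited number of doublings. In the quiescent group (n = 3) growth had been arrested by contact inhibition lasting 9 days, and in the young group (n = 3) the cells were unperturbed controls. Both groups were at population doubling 32, the labels name no transgene or drug in either, and the libraries are called quiescent 1, 2 and 3 and young 1.0, 1.1 and 1.2.

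MYC binds DNA only as a dimer with MAX, mainly at the E-box CACGTG, and raises the transcription of genes for ribosome assembly, nucleotide synthesis and metabolism. The MXD proteins (MXD1, MXI1, MXD3 and MXD4) and MNT also pair with MAX, occupy the same sites and recruit the SIN3 and histone deacetylase corepressor. MLX is a second common partner, which pairs with MLXIP (MondoA, a sensor of glucose-derived sugar phosphates) and with some MXD proteins and MNT. MGA pairs with MAX inside PRC1.6, a Polycomb complex that silences genes. In fibroblasts MYC mRNA is known to be low in arrested cells and to be induced quickly by growth factors.

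Total counts were 26860981 to 29433764 in the young libraries and 18661639 to 22546237 in the quiescent ones. The members together took 0.0473% to 0.0491% of them in young and 0.05435% to 0.0553% in quiescent libraries. Counts differed by more than sampling noise in every pair of libraries, with a chi-square over its degrees of freedom of 1.48 to 1.98 within the quiescent and 3.43 to 8.83 within the young group. The young libraries were reanalysed from an earlier series, so growth state and library set cannot be told apart, and this applies to each difference below. Separate cultures within a group are not named in the labels, and the p-values therefore describe the spread between libraries, possibly only a technical one. All 10 fibroblast markers were present at 1 CPM (counts per 1000000 reads, scaled by trimmed mean of M values, TMM) or more. They were not steady, with a sum of 25140 to 25750 CPM in young and 14640 to 15000 CPM in quiescent libraries. S100A4 (log2 difference -3.89), THY1 (-1.91), COL1A1 (-1.18), COL1A2, COL3A1, PDGFRA and DCN were lower in quiescent libraries. LUM (1.23) and PDGFRB (0.515) were higher, and VIM was nearly level (0.01). The 5 epithelial markers summed to at most 0.897 CPM in any library. Among endothelial markers KDR and VWF were higher in quiescent libraries (the sum of the 4 markers was 1.005 to 1.55 CPM in young and 6.12 to 6.78 CPM in quiescent), with PECAM1 and CDH5 at or under 0.0739 CPM throughout. The 5 blood markers summed to 0.944 to 1.15 CPM and 2.37 to 3.23 CPM, almost all of it CD14, and the 4 muscle markers to 2.48 to 2.83 CPM and 2.06 to 3.05 CPM. MKI67, CCNB1 and TOP2A, genes of dividing cells, summed to 315.9 to 344.9 CPM in young and 31.8 to 35.8 CPM in quiescent libraries. Their part in the differences below was not tested. In bulk RNA, fewer cells with a transcript and less transcript per cell cannot be told apart.

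The members moved in both directions. MYC and MXD3 were lower in quiescent cells, MXI1, MLXIP, MAX and MGA were higher, and MLX was slightly lower. MXD4, MXD1 and MNT did not pass the test. In edgeR's quasi-likelihood test at an adjusted p under 0.05, 7 of 10 members were called, 4 higher and 3 lower, where 71.1% of all tested genes were called (34.8% higher and 36.3% lower), so the share of members called was near the background. A change of at least 2-fold was called in 2 members, MYC lower and MXI1 higher, where 17.3% of all tested genes passed both limits (8.98% higher and 8.33% lower). The 2 groups did not overlap in 8 members, 4 in each direction, where 73.5% of all tested genes showed no overlap (36.4% higher and 37.1% lower). The scaling sets where zero lies: with library size alone the median log2 difference of all genes moved from 0.00 to 0.18, and the genes called changed from 5412 higher and 5652 lower to 7568 higher and 3889 lower. Under that scaling 6 members were called higher and 2 lower. Relative to the median of all genes, the members' differences were the same to within 0.01 in log2 under TMM, library size, upper-quartile and DESeq2 size factors. This follows from the method, since each scaling moves all genes by nearly the same amount, and is not a separate test of the members.

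**Figure D1:**
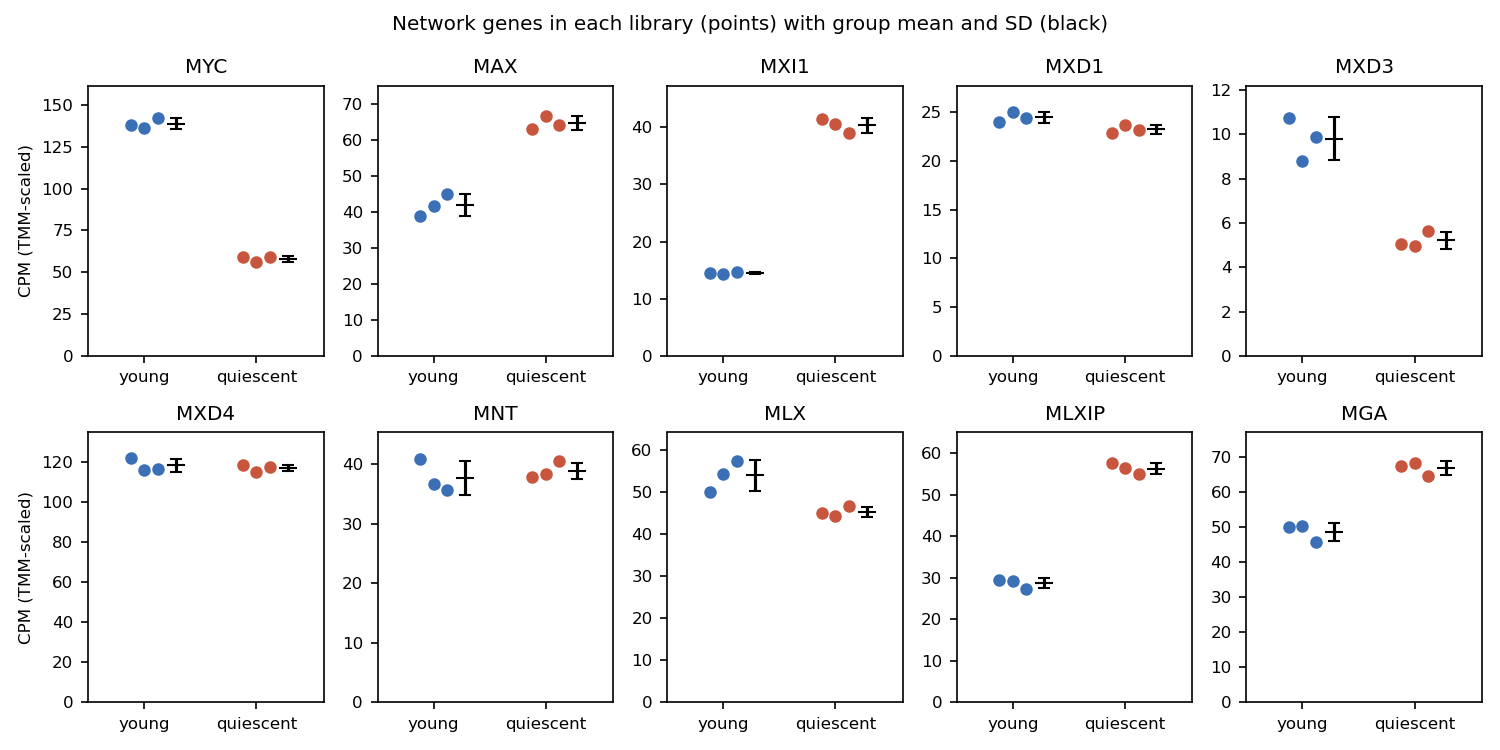
TMM-scaled CPM of each of the 10 network genes (vertical axis, from 0, one scale per gene) in the 3 young and 3 quiescent libraries; points are libraries, and the black bars are the group mean with 1 SD. MYC falls from 136 to 142 CPM to 55.9 to 59.2 CPM and MXI1 rises from 14.3 to 14.6 CPM to 39.0 to 41.4 CPM, while the groups overlap for MXD4 and MNT.

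MYC (ENSG00000136997, chr8:127735434-127741434 on GRCh38, plus strand, 3 merged exons of 3001 bases) was at 138, 136 and 142 CPM in young 1.0, 1.1 and 1.2 and at 59.2, 55.9 and 58.9 CPM in quiescent 1, 2 and 3. All 3 quiescent libraries lay below all young ones, and the spread within each group was small (coefficient of variation 2.26% and 3.20%). MYC was 2.396-fold lower in quiescent cells (log2 -1.26 ± 0.04 SE, edgeR adjusted p = 4.52e-19). By size of change it ranked 1873 of 15568 tested genes. The change kept its sign and its call in every alternative tried, between -1.08 with library size alone and -1.42 on the deposited RPKM. MYC shares no exon bases with another gene in GENCODE 29. The other genes able to supply a MYC protein were nearly silent: MYCN had 0 reads in each of the 6 libraries, which allows up to 0.108 to 0.151 CPM (3 counts per library, counting error only), and MYCL had 4 to 10 reads.

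MAX (ENSG00000125952, chr14:65006174-65102695, minus strand, 4430 exon bases) encodes the obligate partner of MYC and of the MXD proteins. It was at 38.8, 41.6 and 45.0 CPM in the young and at 62.9, 66.7 and 64.0 CPM in the quiescent libraries. The groups did not overlap, and the young libraries spread more (7.40%) than the quiescent ones (2.99%). MAX rose 1.54-fold (log2 0.63 ± 0.05 SE, edgeR adjusted p = 4.09e-11), opposite in direction to MYC. It shares 184 exon bases with the antisense gene AL139022.1, which in an unstranded library cannot be told apart from it.

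Among the MXD repressors, MXI1 (ENSG00000119950, chr10:110207605-110287365, plus strand, 4607 exon bases), also known as MXD2, changed most. It was at 14.4, 14.3 and 14.6 CPM in young and at 41.4, 40.5 and 39.0 CPM in quiescent libraries. The lowest quiescent library lay far above the highest young one. MXI1 rose 2.78-fold (log2 1.48 ± 0.06 SE, edgeR adjusted p = 8.18e-18), the largest change in either direction among the 10 members. Antisense AL360182.2 shares 205 of its exon bases.

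MXD3 (ENSG00000213347, chr5:177301461-177312757, minus strand, 5154 exon bases), which in mouse cells is known for expression during S phase, went the other way from MXI1. It was at 10.7, 8.80 and 9.87 CPM in young and at 5.04, 4.95 and 5.65 CPM in quiescent libraries. The groups did not overlap, with 104 to 118 reads behind each quiescent value and 238 to 275 behind each young one. MXD3 fell 1.88-fold (log2 -0.91 ± 0.10 SE, edgeR adjusted p = 1.66e-08). Of its exon bases, 40.4% lie in other genes, 926 in RAB24 on the same strand and 1158 in PRELID1 on the opposite one, so its level is uncertain. RAB24 itself had a log2 difference of 0.02 ± 0.09 SE (edgeR adjusted p = 0.870), and PRELID1, a mitochondrial lipid transfer protein gene, fell by 0.79 ± 0.07 SE (edgeR adjusted p = 8.67e-11).

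MXD4 (ENSG00000123933, chr4:2247432-2262294, minus strand, 7058 exon bases) was the most abundant MXD gene per exon length in both groups. It was at 122, 116 and 117 CPM in young and at 118, 115 and 117 CPM in quiescent libraries. The 2 sets overlapped almost completely. The log2 difference was -0.02 ± 0.04 SE (95% interval -0.09 to 0.06, edgeR adjusted p = 0.739), an interval far narrower than the change seen in MXI1. With library size alone it became 0.16 and was called (edgeR adjusted p = 0.0011), which is the shift of all genes under that scaling.

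MXD1 (ENSG00000059728, chr2:69897688-69942945, plus strand, 6351 exon bases), the founding MXD gene and a gene known for induction in differentiating cells, was at 23.9, 25.03 and 24.4 CPM in young and at 22.8, 23.7 and 23.1 CPM in quiescent libraries. Every quiescent value was below every young one, but the gap was small beside the fitted error. The log2 difference was -0.07 ± 0.06 SE (95% interval -0.19 to 0.04, edgeR adjusted p = 0.256), and with library size alone its sign turned to 0.11. MXD1 shares 237 exon bases with SNRNP27 on the same strand.

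MNT (ENSG00000070444, chr17:2384060-2401118, minus strand, 8728 exon bases) is the MAX partner and MYC antagonist that most cell types express at all times. Its values were 40.9, 36.6 and 35.6 CPM in young and 37.8, 38.3 and 40.5 CPM in quiescent libraries. The groups overlapped, and young 1.0 was the highest of the 6. The log2 difference was 0.04 ± 0.06 SE (95% interval -0.06 to 0.15, edgeR adjusted p = 0.482). With library size alone it was 0.22 and called (edgeR adjusted p = 0.00126). Of its exon bases, 1065 lie opposite AC006435.1.

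MGA (ENSG00000174197, chr15:41621224-41773081, plus strand, 27 merged exons of 17651 bases), the scaffold of PRC1.6 and the only member with a T-box DNA-binding domain as well, was at 50.04, 50.1 and 45.6 CPM in young and at 67.3, 68.3 and 64.4 CPM in quiescent libraries. The groups did not overlap. MGA rose 1.37-fold (log2 0.46 ± 0.05 SE, edgeR adjusted p = 3.89e-09). It shares 510 exon bases with the opposite-strand gene AC073657.1.

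In the MLX branch, MLXIP (ENSG00000175727, chr12:122078722-122147347, plus strand, 13905 exon bases), which encodes MondoA, was at 29.5, 29.1 and 27.2 CPM in young and at 57.5, 56.3 and 54.9 CPM in quiescent libraries. The groups were far apart, and MLXIP rose 1.97-fold (log2 0.98 ± 0.05 SE, edgeR adjusted p = 2.65e-15). It shares no exon bases with other genes.

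Its partner MLX (ENSG00000108788, chr17:42567068-42573239, plus strand, 4259 exon bases) was at 50.1, 54.3 and 57.5 CPM in young and at 45.2, 44.3 and 46.6 CPM in quiescent libraries. The groups did not overlap, and the young ones spread by 6.87%. MLX fell 1.19-fold (log2 -0.25 ± 0.05 SE, edgeR adjusted p = 1.04e-04), a call that was lost with library size alone (-0.07, edgeR adjusted p = 0.209). It shares 770 exon bases with PSMC3IP on the opposite strand, a recombination gene that fell by 0.88 ± 0.12 SE (edgeR adjusted p = 4.52e-07). MLXIPL, which encodes ChREBP, the glucose-responsive factor of liver and fat, had 0 to 2 reads per library and was not tested.

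**Figure D2:**
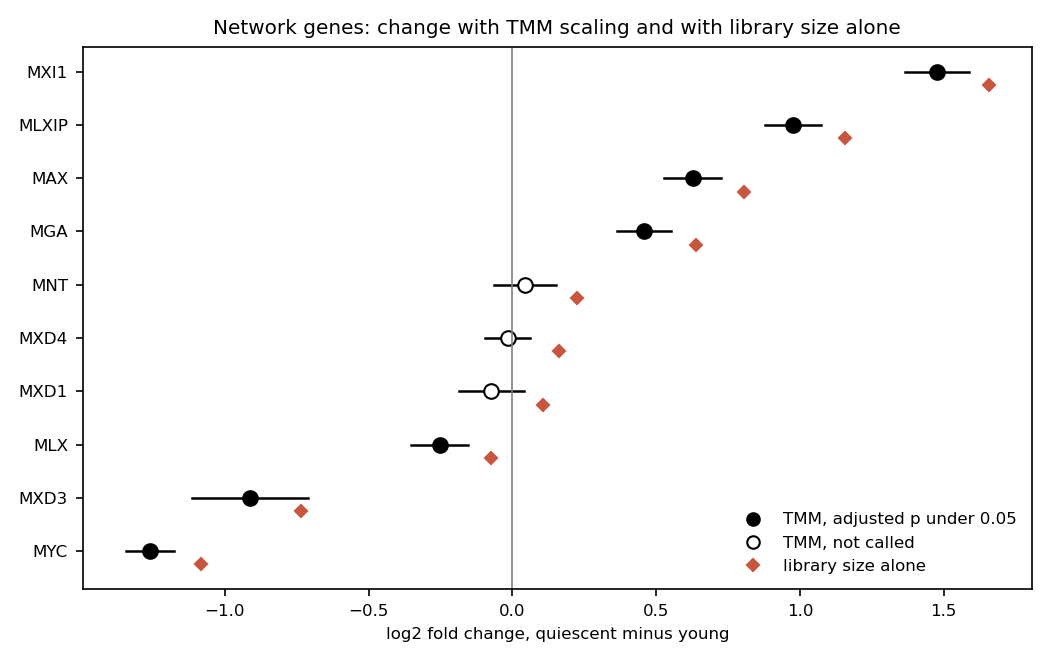
Log2 fold change of each network gene, quiescent minus young (horizontal axis), with TMM scaling (circles with 95% intervals; filled where the edgeR adjusted p is under 0.05) and with library size alone (diamonds). MXI1 at 1.48 and MYC at -1.26 mark the ends, the intervals of MNT, MXD4 and MXD1 cross 0, and library size alone moves every gene up by about 0.18.

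To compare the members with each other, counts were expressed per kilobase of merged exons and per 1000000 scaled reads (RPKM, recomputed from the counts). The length covers the exons of all annotated isoforms, so a gene with long alternative exons comes out low. In young cells MYC was by far the most abundant at 46.3 ± 1.04 RPKM (SD, n = 3), followed by MXD4 at 16.7 ± 0.460 RPKM, MLX at 12.7 ± 0.871 RPKM and MAX at 9.43 ± 0.698 RPKM. MNT, MXD1, MXI1, MGA, MLXIP and MXD3 followed between 4.32 and 1.90 RPKM. Only MLXIP and MXD3, the last in the order, overlapped with their neighbour.

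In quiescent cells MYC was still first, at 19.3 ± 0.618 RPKM, but MXD4 at 16.6 ± 0.243 RPKM and MAX at 14.6 ± 0.435 RPKM were close behind. MAX had moved ahead of MLX, which was at 10.7 ± 0.278 RPKM. MXI1 had moved from the seventh to the fifth place, at 8.75 ± 0.270 RPKM. MNT, MLXIP, MGA and MXD1 lay between 4.45 and 3.66 RPKM, with MGA and MXD1 overlapping, and MXD3 was last at 1.011 ± 0.0735 RPKM. The first place of MYC in quiescent cells depends on the lengths used. Without lengths its quiescent mean was 57.99 CPM, below MXD4 at 116.9 CPM, MGA at 66.7 CPM and MAX at 64.5 CPM.

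The mix of network transcripts differed between the groups, and ratios within a library do not depend on its scaling. The sum over the 10 members does depend on the scaling, and on the exon lengths. It was 102, 102 and 105 RPKM in young and 87.2, 86.1 and 87.1 RPKM in quiescent libraries. MYC made up 44.9%, 44.6% and 45.1% of it in young and 22.6%, 21.6% and 22.6% in quiescent libraries. The 4 MXD genes together made up 24.2% to 25.6% in young and 34.2% to 34.8% in quiescent libraries. MXD4 held most of that in both groups, and MXI1 rose from 3.05% to 10.1% of the network sum.

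The ratio of MYC to the summed MXD genes was 1.75, 1.801 and 1.87 in young and 0.650, 0.625 and 0.659 in quiescent libraries. Per exon length, MYC mRNA was thus above the summed MXD mRNA in each young library and not in any quiescent one. In young libraries this order depends on the lengths used, 3001 bases for MYC and 7058 for MXD4. Without lengths, the young mean of MYC was 138.8 CPM. It was 118.1 CPM for MXD4, 24.4 CPM for MXD1, 14.5 CPM for MXI1 and 9.80 CPM for MXD3. With MNT and MGA added to the MXD genes the ratio was 1.42 ± 0.0589 and 0.506 ± 0.0143 (SD, n = 3). The ratio of MAX to MYC was 0.204 ± 0.0120 in young and 0.755 ± 0.0472 in quiescent cells, and MAX relative to all of its listed partners (MYC, the MXD genes, MNT and MGA) was 0.119 ± 0.00899 and 0.253 ± 0.0111. MLXIP relative to MLX was 0.163 ± 0.0176 and 0.380 ± 0.0166. These ratios are of mRNA and say nothing on protein or dimers.

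**Figure D3:**
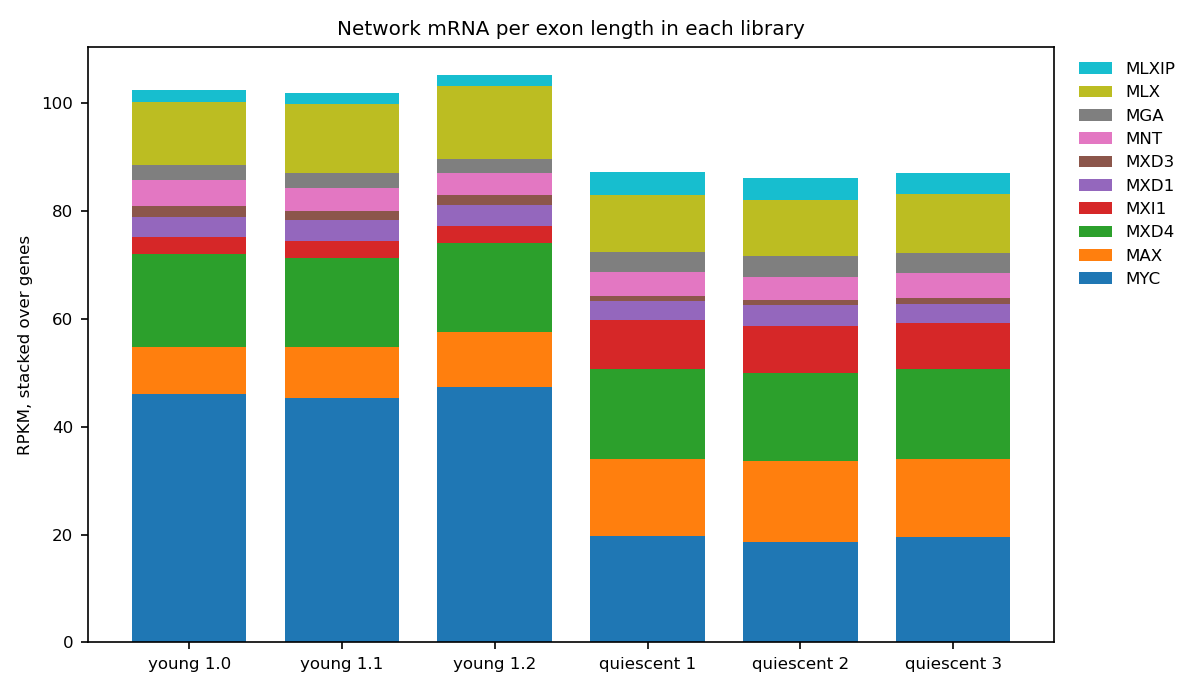
Recomputed RPKM of the 10 network genes stacked in each of the 6 libraries (vertical axis, from 0). MYC takes 44.6% to 45.1% of the stack in young and 21.6% to 22.6% in quiescent libraries, while the bands of MAX and MXI1 widen.

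Genes whose profile over the 6 libraries was closest to a member were found by the Euclidean distance between log2 CPM values centred on their mean, over 15487 genes. For MYC these were DNAJB11, a chaperone of the endoplasmic reticulum (distance 0.06, log2 -1.26), CTSC, a lysosomal protease (0.07, log2 -1.23), and TRNP1 (0.07, log2 -1.27). For MXI1 they were IFIT2, an interferon-induced gene (0.06, log2 1.52), CYP27A1, a sterol hydroxylase (0.08, log2 1.45), and CYBRD1, an iron reductase (0.08, log2 1.43). For MXD4 they were FIBP, ABCC10 and SGSM2, each within 0.03 and with a log2 difference of -0.02 to -0.03. The distance rests almost wholly on the difference between 2 groups, so many genes lie near each member.

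The E-box was searched in the RefSeq promoters of the GRCh38.p14 build, each running from 250 bases before to 50 after a transcript start. CACGTG, which reads the same on both strands, occurred in 7.26% of 35116 promoters and in 8.77% of 27305 genes. Of the members, MYC had no entry there and was not searched. The other 9 had a promoter, and 3 of these held a CACGTG: MXD4 at -238, MNT at -193 and MLX at -50 from the start. These are shown because they are the network's own genes that carry the site its proteins bind, and 2 targets, ARRDC4 at -210 and ODC1 at -29, are set beside them. ODC1 had 2 promoters, of which 1 held no CACGTG. The other held the site at -29 and another at position 6 after the start, which is not printed. The capitals mark CACGTG, and each line gives the strand of the gene, 5′ to 3′.
MXD4, chr4:2262315-2262359, minus strand: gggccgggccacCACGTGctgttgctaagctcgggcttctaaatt
MNT, chr17:2401221-2401280, minus strand: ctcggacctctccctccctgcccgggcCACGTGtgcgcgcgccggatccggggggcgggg
MLX, chr17:42567023-42567082, plus strand: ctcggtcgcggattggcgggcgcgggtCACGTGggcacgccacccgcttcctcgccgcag
ARRDC4, chr15:97960466-97960525, plus strand: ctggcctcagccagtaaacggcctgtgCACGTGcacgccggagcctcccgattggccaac
ODC1, chr2:10448013-10448068, minus strand: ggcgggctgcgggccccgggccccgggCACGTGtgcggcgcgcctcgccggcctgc
Of the 3 members with the site, MXD4 and MNT did not pass the test and MLX fell by 0.25 in log2. In MXI1, MLXIP, MAX and MGA, the members that rose, and in MXD1 and MXD3, CACGTG did not occur in these windows. A match is a run of letters and not shown binding.

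Textbook genes activated by MYC were mostly lower. Of 35 listed, 33 were tested, and 26 were called lower and 3 higher, with a median log2 difference of -0.37 against 0.00 for all tested genes. Scaled by library size alone, 20 were lower and 6 higher. The list was put together with earlier results of these data known, and 87.9% of it was called where 71.1% of all genes were.

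LDHA, the lactate dehydrogenase of glycolysis, was at 461, 475 and 502 CPM in young and at 164, 166 and 163 CPM in quiescent libraries, and fell by 1.54 ± 0.04 SE in log2 (edgeR adjusted p = 3.08e-21). ODC1, the first enzyme of polyamine synthesis, was at 187, 192 and 204 CPM and then at 66.0, 69.8 and 68.5 CPM, a log2 difference of -1.51 ± 0.04 SE (edgeR adjusted p = 1.68e-20). EIF4A1, the RNA helicase of translation initiation, fell by 1.33 ± 0.07 SE (edgeR adjusted p = 5.85e-15), but shares 48.6% of its exon bases with other genes, and its level is uncertain. NCL, the nucleolar protein of ribosome assembly, went only from 580, 605 and 621 CPM to 454, 462 and 459.9 CPM (log2 -0.39 ± 0.04 SE, edgeR adjusted p = 1.67e-09). In each of these genes the quiescent libraries lay below all young ones.

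The 3 listed genes called higher were CCND2, CDK4 and SHMT2. CCND2, cyclin D2 of the G1 phase, was at 18.3, 17.2 and 15.6 CPM in young and at 35.1, 34.0 and 34.3 CPM in quiescent libraries (log2 1.02 ± 0.06 SE, edgeR adjusted p = 1.01e-13). CDK4, the kinase that cyclin D2 activates, rose by 0.23 ± 0.04 SE (edgeR adjusted p = 2.26e-05), with 43.2% of its exon bases shared with other genes, mostly TSPAN31 on the opposite strand. SHMT2, a mitochondrial enzyme of one-carbon metabolism named after its value was seen, rose by 0.19 ± 0.04 SE (edgeR adjusted p = 5.63e-05).

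Of the 35 listed genes, 26 had a promoter in the RefSeq table and 15 of these (57.7%) held CACGTG, where 8.77% of all genes did. Among the tested ones with the site, 12 were called lower and 1 higher of 14, with a median log2 difference of -0.46. Among those with a promoter but no CACGTG, 8 were called lower and 0 higher of 10, with a median of -0.34. Lower values thus prevailed in both sets, where 36.3% of all tested genes were called lower and 34.8% higher. The difference between the sets was not tested.

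Textbook genes repressed by MYC were split. Of 13 listed, 12 were tested and all 12 were called, 7 higher and 5 lower, with a median log2 difference of 0.70, where 71.1% of all genes were called (34.8% higher and 36.3% lower). Library size alone gave 7 higher and 3 lower. GAS1, a growth arrest gene, was at 5.86, 5.25 and 5.10 CPM in young and at 20.2, 18.9 and 17.4 CPM in quiescent libraries (log2 1.803 ± 0.09 SE, edgeR adjusted p = 7.22e-16). CDKN1B, the CDK inhibitor p27, was at 24.9, 24.3 and 25.5 CPM and then at 53.8, 59.2 and 59.8 CPM (log2 1.21 ± 0.05 SE, edgeR adjusted p = 1.03e-16). Both were clear of overlap. FTH1, the ferritin heavy chain, rose by 1.28 ± 0.07 SE (edgeR adjusted p = 8.30e-08), but 62.4% of its exon bases lie in other genes and 25 pseudogenes are named after it, so its value is uncertain.

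Others of that list went down with MYC rather than up. NDRG4 fell by 0.87 ± 0.07 SE (edgeR adjusted p = 1.34e-11), and GADD45B, a stress gene, by 0.70 ± 0.06 SE (edgeR adjusted p = 4.98e-11). CDKN1A, the CDK inhibitor p21, was at 1078, 1078 and 1095 CPM in young and at 947, 973 and 993 CPM in quiescent libraries. That is a log2 difference of -0.16 ± 0.04 SE (edgeR adjusted p = 6.65e-04), whose sign turned to 0.02 with library size alone.

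MLXIP rose, but the genes best known to respond to MondoA did not rise with it. Of 10 listed targets of MondoA and ChREBP, 8 were tested, 3 called higher and 4 lower (median log2 difference -0.18), or 87.5% against 71.1% of all genes. TXNIP, an inhibitor of glucose uptake, was at 9.76, 10.02 and 10.1 CPM in young and at 8.33, 7.38 and 7.91 CPM in quiescent libraries, all lower (log2 -0.34 ± 0.09 SE, edgeR adjusted p = 0.00111). That call was lost with library size alone, at -0.16. ARRDC4, its close relative, was at 5.90, 6.73 and 6.75 CPM and then at 2.86, 2.98 and 3.08 CPM (log2 -1.12 ± 0.12 SE, edgeR adjusted p = 7.70e-09).

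KLF10, a zinc finger factor that TGF-beta also induces, fell by 1.32 ± 0.04 SE in log2 (edgeR adjusted p = 7.55e-20). Genes of fatty acid synthesis went both ways. ACLY, which makes cytosolic acetyl-CoA, fell by 0.43 ± 0.04 SE (edgeR adjusted p = 2.67e-09), and ACACA, the acetyl-CoA carboxylase of the committed step, did not pass the test (log2 -0.02 ± 0.09 SE, edgeR adjusted p = 0.876), both named after their values were seen. SCD, which desaturates fatty acids, was at 845, 898 and 839.8 CPM in young and at 1381, 1517 and 1479 CPM in quiescent libraries (log2 0.76 ± 0.04 SE, edgeR adjusted p = 2.18e-14), and FASN, the fatty acid synthase, rose by 0.27 ± 0.05 SE (edgeR adjusted p = 1.95e-04).

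The corepressor that the MXD proteins and MNT recruit moved little. Of 16 genes, all tested, 5 were called higher and 4 lower (56.3%, against 71.1% of all genes), none by 2-fold, with a median log2 difference of 0.10. Library size alone gave 11 higher and 2 lower. HDAC1, the deacetylase shared by many repressors, fell by 0.54 ± 0.04 SE (edgeR adjusted p = 7.72e-12) and its paralog HDAC2 by 0.26 ± 0.04 SE (edgeR adjusted p = 7.13e-06), not called with library size alone. The 2 SIN3 scaffolds went in opposite directions. SIN3A was at 46.8, 48.8 and 42.6 CPM in young and at 54.3, 57.1 and 54.7 CPM in quiescent libraries (log2 0.27 ± 0.05 SE, edgeR adjusted p = 4.69e-05). SIN3B was at 111, 103 and 101 CPM and then at 83.3, 85.3 and 85.4 CPM (log2 -0.31 ± 0.04 SE, edgeR adjusted p = 8.82e-07). Neither pair of groups overlapped. ARID4A, a SIN3-bound subunit, rose by 0.27 ± 0.05 SE (edgeR adjusted p = 5.84e-05).

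Of 19 coactivators and partners of MYC, all tested, 9 were called lower and 3 higher (63.2%, against 71.1% of all genes), with a median log2 difference of -0.15. Scaled by library size alone, 5 were lower and 8 higher, and the higher calls numbered 5, 7 and 5 when young 1.0, 1.1 or 1.2 was left out. RUVBL2 and RUVBL1, a pair of AAA ATPases found in the TIP60 and INO80 complexes, went together. RUVBL2 was at 96.3, 96.3 and 100.3 CPM in young and at 48.5, 50.03 and 49.9 CPM in quiescent libraries (log2 -0.98 ± 0.04 SE, edgeR adjusted p = 1.15e-16), and RUVBL1 fell by 0.73 ± 0.05 SE (edgeR adjusted p = 3.11e-13). SKP2, an F-box protein that both activates and degrades MYC, fell by 0.83 ± 0.06 SE (edgeR adjusted p = 5.02e-12). ZBTB17 (MIZ1), through which MYC represses genes, fell by 0.29 ± 0.05 SE (edgeR adjusted p = 2.66e-05) and was not called with library size alone.

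KAT2A, the acetyltransferase GCN5, rose by 0.23 ± 0.04 SE (edgeR adjusted p = 5.50e-05). TRRAP, EP400 and EP300 are large acetyltransferases or parts of their complexes, and were chosen here after their values were seen, for the spread of the young libraries. TRRAP was at 135, 149.8 and 109.9 CPM in young and at 133, 137 and 139.6 CPM in quiescent libraries. Young 1.2 was the lowest library for TRRAP, EP400 and EP300, and in none of the 3 did the difference pass the test.

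MGA rose, but its PRC1.6 partners did not move as a body. Of 14 genes, all tested, 3 were called higher and 5 lower (57.1%, against 71.1% of all genes; median log2 difference 0.03), and with library size alone 7 were higher and 4 lower. Without young 1.2 the higher calls numbered 5. L3MBTL2, which binds methylated histones, was at 27.7, 27.9 and 27.6 CPM in young and at 31.0, 32.4 and 33.1 CPM in quiescent libraries (log2 0.21 ± 0.05 SE, edgeR adjusted p = 0.00103). E2F6, the repressive E2F of the complex, rose by 0.28 ± 0.08 SE (edgeR adjusted p = 0.00225). PCGF6, the subunit that defines PRC1.6, was at 7.87, 6.51 and 7.64 CPM and then at 7.02, 7.21 and 9.12 CPM, which overlapped (log2 0.08 ± 0.11 SE, edgeR adjusted p = 0.515).

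The dimer partners of E2F went apart: TFDP1 fell by 0.81 ± 0.04 SE (edgeR adjusted p = 3.39e-15), whereas TFDP2 rose by 0.50 ± 0.05 SE (edgeR adjusted p = 1.15e-08). CBX1, a heterochromatin protein, fell by 0.53 ± 0.04 SE (edgeR adjusted p = 3.11e-11). HDAC1, HDAC2 and WDR5 count in this list as well as in another.

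**Figure D4:**
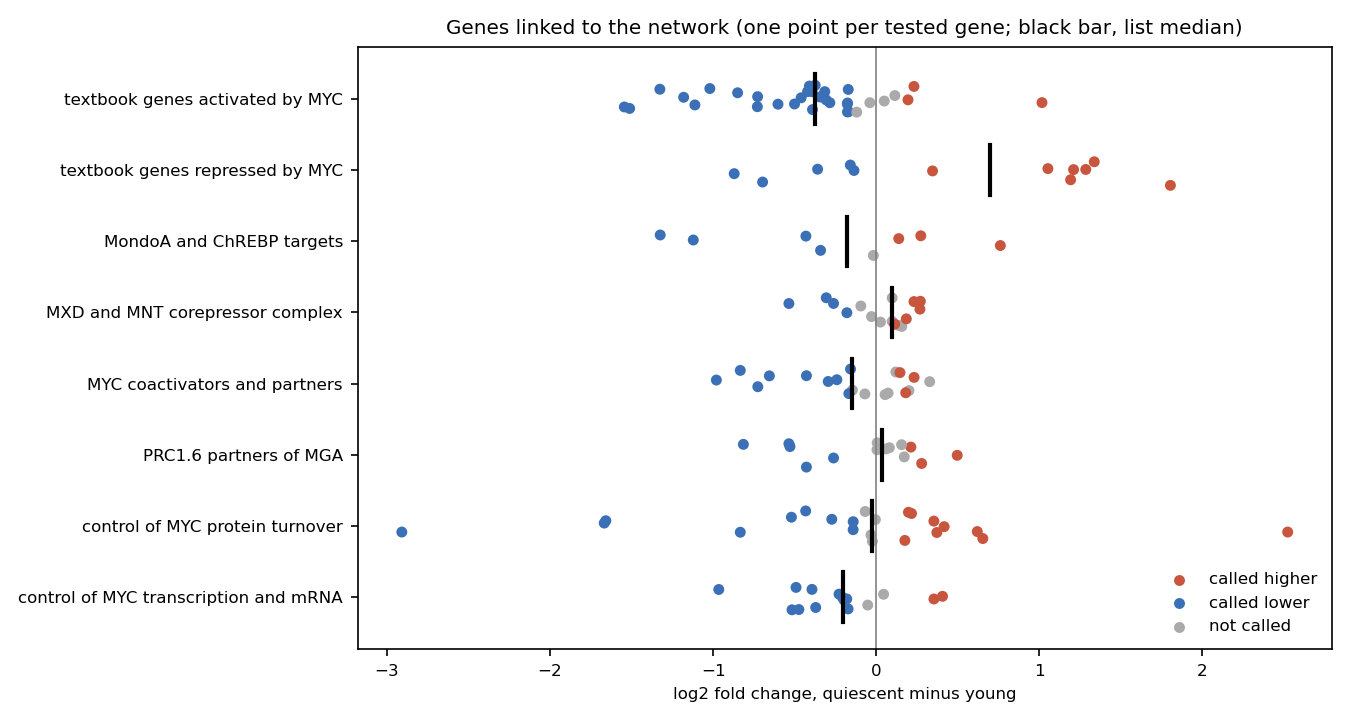
Log2 fold change, quiescent minus young (horizontal axis), of every tested gene in 8 lists linked to the network; colours show the edgeR call at an adjusted p under 0.05 and black bars the list medians. The list of genes activated by MYC has 26 of 33 genes called lower, while the turnover list has 9 in each direction.

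Genes that control the stability of MYC protein included the most strongly changed genes of all lists. Of 22, all tested, 9 were called higher and 9 lower (81.8%, against 71.1% of all genes), with a median log2 difference of -0.03. PLK1, a mitotic kinase that stabilises MYC proteins, was at 31.8, 29.4 and 32.4 CPM in young and at 4.17, 4.36 and 3.88 CPM in quiescent libraries (log2 -2.91 ± 0.08 SE, edgeR adjusted p = 9.15e-21). AURKA, a mitotic kinase that shields MYCN and MYC from degradation, was at 41.1, 44.7 and 48.2 CPM and then at 14.1, 14.8 and 13.2 CPM (log2 -1.67 ± 0.07 SE, edgeR adjusted p = 2.22e-17). Both are also genes of dividing cells, like the summed MKI67, CCNB1 and TOP2A above, whose part in these values was not tested.

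FBXO32 (atrogin-1), an F-box protein reported to target MYC and a known FOXO-induced gene, was at 10.3, 9.69 and 9.15 CPM in young and at 54.8, 56.9 and 55.5 CPM in quiescent libraries. The groups were far apart, with a log2 difference of 2.52 ± 0.06 SE (edgeR adjusted p = 2.92e-22). FBXW7, the best known F-box protein for phosphorylated MYC, did not pass the test, at 27.4, 25.4 and 29.03 CPM and then 25.3, 26.7 and 26.1 CPM (log2 -0.07 ± 0.06 SE, 95% interval -0.19 to 0.05, edgeR adjusted p = 0.315). Its sign turned to 0.11 with library size alone and to 0.003 with upper-quartile factors.

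Of 16 regulators of MYC transcription and mRNA, 15 were tested, 11 called lower and 2 higher (median log2 difference -0.21), where 36.3% of all genes were called lower and 34.8% higher. With library size alone 6 were lower and 4 higher. IGF2BP3, an RNA-binding protein that stabilises MYC mRNA, was at 66.9, 67.7 and 61.4 CPM in young and at 33.6, 33.3 and 33.5 CPM in quiescent libraries (log2 -0.97 ± 0.05 SE, edgeR adjusted p = 3.37e-15). FUBP1, which binds the far upstream element of MYC, fell by 0.52 ± 0.04 SE (edgeR adjusted p = 1.45e-11), and so did PUF60, its repressing partner, by 0.49 ± 0.06 SE (edgeR adjusted p = 2.24e-08).

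The 2 called higher were CTCF, the insulator protein (log2 0.41 ± 0.05 SE, edgeR adjusted p = 1.63e-08), and YBX3, a cold shock domain RNA-binding protein (0.35 ± 0.04 SE, edgeR adjusted p = 1.35e-08). PVT1, the long noncoding RNA next to MYC, was at 7.12, 6.91 and 7.79 CPM in young and at 6.20, 6.50 and 5.90 CPM in quiescent libraries. All 3 quiescent values were lower, but the difference was close to the limit (log2 -0.23 ± 0.10 SE, edgeR adjusted p = 0.0422) and lost its call under most alternatives, DESeq2's Wald test and limma-voom among them.

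The authors' deposited RPKM could not be used for these comparisons. The read total by which a count had been divided, found from the count, the deposited RPKM and the exon length, followed the row number of the table and not the library. It repeated every 15 rows in the young columns (from 25.97 to 41.54 in units of 1000000 reads) and every 14 rows in the quiescent ones (from 18.66 to 33.69), and 91.2% of 10202 genes lay within 0.01 in log2 of the value of their place in the cycle. For MYC the deposited RPKM of quiescent 1, 2 and 3 were 14.04, 22.5 and 17.0 where the counts gave nearly equal CPM, and the totals divided by were 29.01, 19.75 and 22.86 in units of 1000000 reads. MAX and MGA were not called on the deposited RPKM, whereas on RPKM recomputed from the counts the same 7 members as in the count test were called.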

How the data were processed

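RNA-seq was examined in 6 MRC-5 libraries, 3 quiescent and 3 young. Per the labels' protocols, total RNA was turned into libraries using Illumina's TruSeq RNA v2 kit, which keeps no strand information. Per the submitters' processing notes, the build was GRCh38 and the tools included STAR 2.4.1d, bcl2fastq 1.8.4 and featureCounts 1.4.6-p4. Annotation release, strand setting and the handling of reads that match several places: not given in the sources used here. The authors deposited raw read counts per Ensembl gene and, in a second table, RPKM. The titles of the quiescent samples name their columns. The young columns share another name and were placed in the young group as the remaining 3, without knowing which young sample each is.

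From the counts, edgeR 4.0.16 in R 4.3.3 was run on all genes passing filterByExpr, with TMM factors, a robust quasi-likelihood fit with group as the only term, and Benjamini-Hochberg adjustment over 15568 genes (biological coefficient of variation 3.84%). A gene was called at an adjusted p under 0.05. The SE was worked back from the test, as the absolute log2 difference divided by the square root of its F statistic. The 95% intervals were built from that SE with a normal error, so they are approximate and can differ from the call. Log2 CPM used a prior count of 2. Gene names, positions and exon lengths came from GENCODE 29, which held 57055 of the IDs and lacked 80 of the tested ones. RPKM were recomputed from counts, TMM-scaled library sizes and merged exon lengths. Alternatives were DESeq2 1.42.0 (size factors and Wald test), library size alone, upper-quartile factors, other filters, limma-voom (limma 3.58.1), limma on log2 of the deposited RPKM with a pseudocount of 1 or 0.1, and each library left out. Limma on the recomputed RPKM was added after the data were seen.

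The members and gene lists were chosen with earlier results of these data known. The text names, per list, the 3 called genes with the largest change (mean CPM 1 or more), the 2 largest in the minority direction, and 18 genes of the network and its lists named in any case. Other genes named are said to be so, and 1 gene that the rule names is counted but not reported here. Promoter sequences were taken from RefSeq on GRCh38.p14, where 9 of 10 members, all except MYC, had an entry.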

Additional observations from a re-analysis of the deposited data

How the results depend on the processing

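No paired analysis was possible because the young columns carry no replicate number of the labels. MYC, MAX, MXI1, MXD3, MLXIP and MGA kept direction and call under every count-based alternative, and the 54 named genes and 23 counts did so throughout under DESeq2 size factors. MLX lost its call, and MNT and MXD4 gained one, with library size alone. That scaling also turned the log2 difference of MXD1 to 0.11, MXD4 to 0.16, CDKN1A to 0.020 and FBXW7 to 0.11. It gave 6 higher among genes activated by MYC, 3 lower among those repressed, 11 higher and 2 lower in the corepressor, 8 higher and 5 lower among coactivators, 7 higher in PRC1.6 and 4 higher and 6 lower in MYC transcription and mRNA. Upper-quartile factors gave 5 higher among activated genes, 8 higher in the corepressor and 5 higher among coactivators, and turned MXD4 to 0.055 and FBXW7 to 0.003. No filter, and a minimum of 1 CPM in 3 libraries, each gave 5 higher among coactivators, and the latter turned MXD4 to 0.0057. When 1 library was left out, the higher calls ranged from 3 to 7 among coactivators and from 3 to 5 in PRC1.6. MXD4 turned to 0.017 without young 1.0, and PCGF6 ranged from -0.029 without quiescent 3 to 0.15 without quiescent 1, with -0.001 without young 1.1. PVT1 kept its call with DESeq2 size factors and without young 1.1 and lost it in the other alternatives run.

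The deposited RPKM, divided by totals that follow the row, called 7255 genes (2783 higher) with a pseudocount of 1, 7354 (2858) with 0.1 and 5798 (1977) without the filter, against 11064 (5412) from counts. Of the members, 2 were called higher in each, and of all list genes 55, 55 and 44 in place of 104. With the filter, under both pseudocounts, the calls were 1 higher among activated genes, 3 lower among repressed ones, 0 higher among MondoA targets, 0 higher and 2 lower in the corepressor, 0 higher among coactivators, 1 higher and 3 lower in PRC1.6, 3 higher and 5 lower in turnover, and 1 higher and 2 lower in transcription and mRNA. Without the filter they were 1 higher, 2 lower, 0 higher and 2 lower for MondoA targets, 0 and 2 in the corepressor, 0 and 5 among coactivators, 0 and 2 in PRC1.6, 1 and 3 in turnover, and 0 and 2 in transcription and mRNA. With pseudocounts of 1 and 0.1, MXD4 turned to 0.16 and 0.17, MNT to -0.31 and -0.39, SIN3A to -0.033 and -0.046, PCGF6 to -0.0145 and -0.020, PVT1 to 0.031 and 0.055 and KAT2A to -0.060 and -0.066. Of these, MXD4, MNT and PCGF6 had not been called from counts. Of the 49 named genes called from counts, 20 lost their call with either pseudocount and 24 without the filter, SIN3A, PVT1 and KAT2A among them. The cause was not tested beyond the divisor itself.

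Depth limits MYCN, MYCL and MLXIPL, at 0 to 10 reads, and leaves MXD3 with 104 reads in its lowest library.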

Other observations

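The genes given here were chosen after their values were seen. Within the turnover list, genes of the phosphorylation step that marks MYC for FBXW7 moved although FBXW7 itself did not pass the test. GSK3B, the kinase that places the mark, was at 97.2 ± 4.69 CPM (SD, n = 3) in young and at 129.6 ± 4.43 CPM in quiescent libraries. Its groups did not overlap (log2 0.42 ± 0.04 SE, edgeR adjusted p = 4.88e-09). PPP2R5A, a regulatory subunit of the phosphatase PP2A, which acts on MYC, rose by 0.65 ± 0.05 SE (edgeR adjusted p = 2.03e-12). CIP2A, an inhibitor of that phosphatase, was at 19.9, 25.3 and 22.4 CPM and then at 6.83, 7.42 and 7.16 CPM (log2 -1.66 ± 0.09 SE, edgeR adjusted p = 4.33e-14). The deubiquitinases USP28 and USP36, which oppose FBXW7, rose by 0.37 ± 0.05 SE (edgeR adjusted p = 7.06e-07) and by 0.35 ± 0.04 SE (edgeR adjusted p = 7.20e-08).

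Among the genes activated by MYC, the changes were uneven within one function. In ribosome assembly RRS1 fell by 1.11 ± 0.05 SE in log2 (edgeR adjusted p = 2.70e-16) and BOP1 by 0.73 ± 0.05 SE (edgeR adjusted p = 1.58e-12), whereas PES1, which acts in a complex with BOP1, fell by 0.17 ± 0.04 SE (edgeR adjusted p = 7.82e-04). In purine synthesis PAICS fell by 0.73 ± 0.04 SE (edgeR adjusted p = 1.33e-13) and IMPDH2 by 0.35 ± 0.04 SE (edgeR adjusted p = 2.16e-08). UBTF and POLR1B, of RNA polymerase I transcription, had log2 differences of 0.05 ± 0.04 SE and 0.11 ± 0.07 SE that did not pass the test (edgeR adjusted p = 0.302 and 0.162).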
